A study of Mus musculus with 36 samples.

Results

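The genes described here are 10 on a list of chemokines and cytokines that myoblasts can make: Ccl2, Ccl7, Cxcl1, Cxcl5, Cxcl12, Cx3cl1, Il6, Lif, Csf1 and Il1rl1, which encodes a receptor. They were listed by name and matched by symbol, and all 10 were found among the 49315 genes in the count files. RNA sequencing of polyadenylated RNA was done on C2C12 cells, an established mouse myoblast line, kept proliferating in sealed experiment units at 37 °C and preserved in RNAlater after the last fluid exchange on day 9. There were 6 groups of 3 libraries: cells in space without gravity, cells in space with gravity and cells on land, each untreated or given nanoceria, which are nanoparticles of cerium oxide, at 100 µg/ml from the reservoir of medium. Each library came from its own experiment unit, all of 1 cell line, and the labels set the groups apart by regime and nanoceria. The land cultures were a later, separate repeat of the flight in the same kind of hardware, and the regime and the run therefore cannot be told apart in any comparison of space with land.

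Chemokines are small secreted proteins that attract leukocytes along a gradient, and their families are named after the spacing of their first cysteines. Damaged muscle releases them, and proliferating myoblasts are known to make several, among them Ccl2, Cxcl1 and Cxcl12. Interleukin 6 and leukemia inhibitory factor (Lif) act through the shared receptor subunit gp130, and both are known to act on myoblasts themselves. Transcription of many of these genes is known to be raised by the factor NF-kappaB and by AP-1 after stress or inflammatory signals.

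The 18 libraries differed in depth and in makeup. Of these, 17 held between 2986628 and 11378178 counts, whereas nanoceria-treated replicate 3 in space with gravity held 23858. In that library 4 of the 10 genes had any count, and 3 counts there, the number that a count of 0 still allows, correspond to 35.7 CPM, the usual unit of counts scaled to the size of the library. In the other 17 libraries the same floor lay between 0.193 and 1.11 CPM. These floors cover counting error only. CPM here uses library sizes multiplied by TMM factors, which adjust for differences in makeup. Over the 17 libraries the factors ran from 0.403 in nanoceria-treated replicate 1 on land to 1.37 in untreated replicate 1 in space with gravity. A group of 6 genes (Lars2, Gm23935, Gm15564, Gm24270, Gm24187 and Gm25911) took 31.0% ± 5.60 (SD, n = 3) of all counts in untreated cells in space with gravity and 65.3% ± 13.9 (n = 3) on land. The myoblast markers Myf5, Des (desmin) and Chrna1 had 8175, 10699 and 2435 counts over all libraries, while Myod1 had 99, Pax7 had 52 and Cdh15 had 122. Of 8 leukocyte markers, Adgre1, Itgam and Cd3e had 0 counts in every library, and the list summed to between 0 and 16 counts per library, or 0 to 2.85 CPM in space without gravity, 0 to 0.602 CPM in space with gravity and 0 to 1.53 CPM on land. The 4 endothelial markers summed to between 0 and 268 counts, with 267 counts of Tek in nanoceria-treated replicate 1 in space with gravity.

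All 10 genes gave counts, but their levels spanned a wide range. Per kilobase of exon, the median over the 17 deeper libraries was 13.0 CPM for Csf1, the growth factor of macrophages. Next came Cxcl1 with 5.74, Ccl2 with 4.86 and Ccl7 with 3.38 CPM per kilobase, and then Cxcl5 with 1.64 and Cxcl12 with 1.31. The medians of Cx3cl1, Lif and Il6 were 0.423, 0.299 and 0.136 CPM per kilobase, and that of Il1rl1 was 0. Neighbours in this order were not separated, because their ranges over the libraries overlapped: Cxcl1 ran from 1.14 to 22.6 CPM per kilobase and Csf1 from 5.16 to 22.1. Cxcl5 had the widest range among the genes with counts in all 17 libraries, from 0.265 to 74.1 CPM per kilobase. For Il6 and Il1rl1 the counts were too low for most differences between groups to be detectable at this depth.

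**Figure D1:**
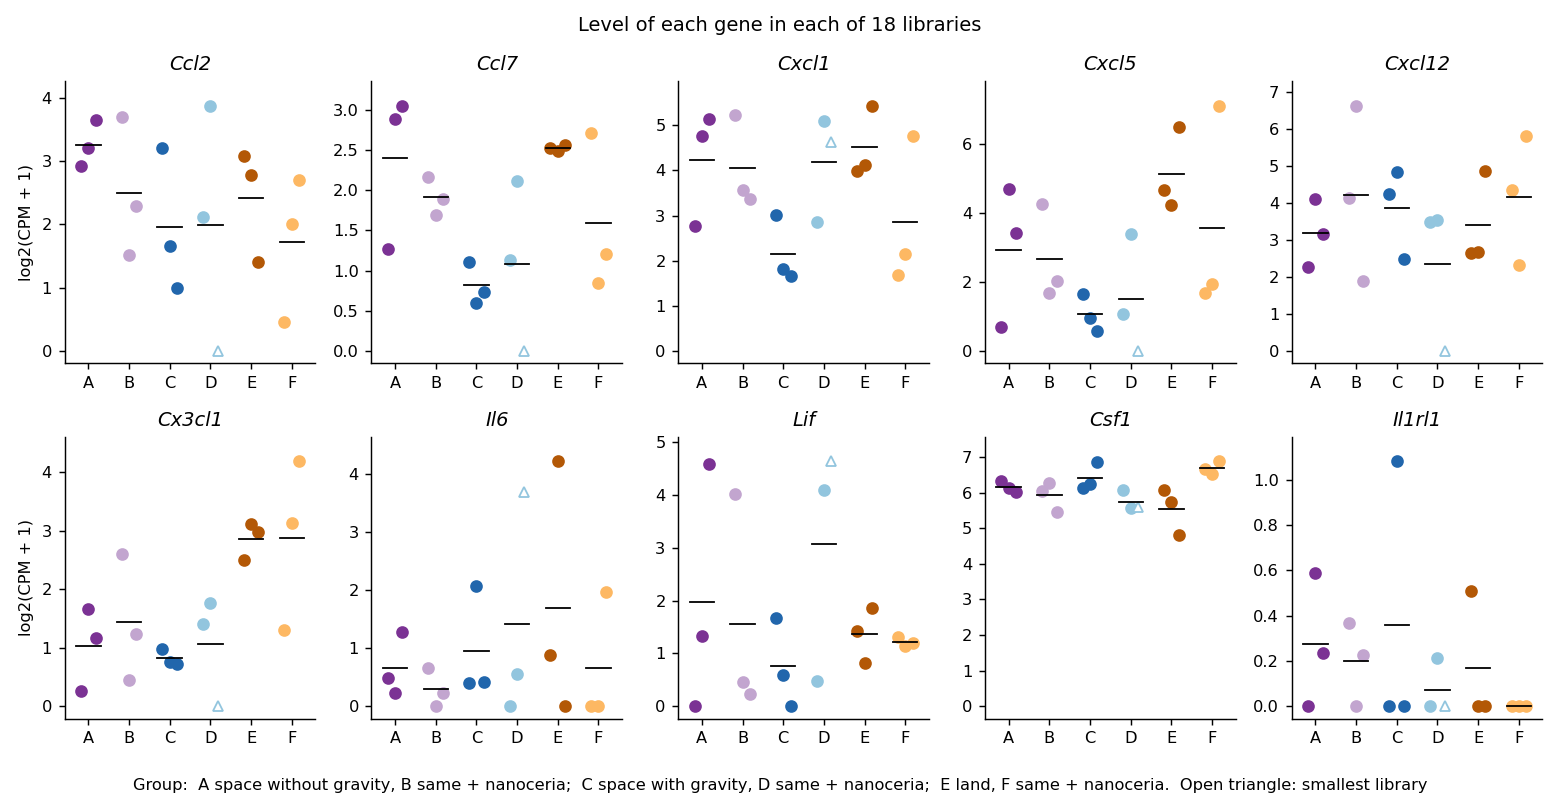
Level of each of the 10 genes in each of the 18 libraries, as log2(CPM + 1) on the vertical axis with a separate scale per gene. Points are libraries, horizontal lines are the means of the 3 log values of a group, and the open triangle is the library of 23858 counts, in which 1 count is a large value. Cxcl5 and Cx3cl1 sit low in both groups of space with gravity (C and D), and Cx3cl1 is about as low in untreated cells in space without gravity (A).

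Of the 9 genes with enough counts to be tested, 2 changed: Cxcl5 and Cx3cl1 were lower in space with gravity than on land, by 18.4-fold and 6.03-fold in the fit averaged over nanoceria. Across all 11558 genes tested, 14.0% were called in this comparison, 7.22% as higher and 6.74% as lower (edgeR's quasi-likelihood test, Benjamini-Hochberg adjusted p under 0.05), and beside that share 2 of 9 is not a result about these genes as a set. That is 834 genes higher and 779 lower, but 628 and 1558 with DESeq2's size factors, 824 and 1867 with the DESeq2 test, and 1470 and 772 with no filter on low counts. In bulk libraries such as these, fewer cells making a transcript and less transcript per cell cannot be told apart. At an unadjusted p under 0.05 there were 3 of the 9, beside 31.9% of all genes. The median log2 fold change of the 9 genes was -0.85, beside -0.04 over all genes tested. In space without gravity against land, 0 of the 9 were called by edgeR with TMM scaling and the filter on low counts. The background there was 5.25% called, 2.81% as higher and 2.44% as lower. At an unadjusted p under 0.05 there were 2 of the 9, where 24.7% of all genes lay. DESeq2 called Cxcl5 and Cx3cl1 as lower, in a fit that called 8.9% of all genes as lower. With DESeq2's size factors edgeR called Cx3cl1 as lower, where 552 of 11558 genes were called lower. With no filter on low counts edgeR called Cxcl5 and Cx3cl1 as lower, where 567 of 25194 genes were, and Lif as higher, where 899 were. Both comparisons use the same land libraries.

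With edgeR after the filter on low counts, no difference with nanoceria or with the withdrawal of gravity in space passed the test for any of the 9 genes. For nanoceria averaged over the 3 regimes, edgeR called 0 of 9, with 0 at an unadjusted p under 0.05, and the background was 0.0% called and 6.54% at that unadjusted p. DESeq2 and limma voom also called 0 of 9. For gravity withdrawn in space, edgeR called 0 of 9, with 1 (Ccl7) at an unadjusted p under 0.05, against a background of 0.0% called and 5.85% at that unadjusted p. DESeq2 and voom also called 0 of 9 there, but with no filter on low counts edgeR called Cxcl5 as higher (1.94, adjusted p = 0.0419), where 0.21% of all genes were called higher. With no filter it also called Lif as higher with nanoceria in space with gravity (3.26, adjusted p = 0.0384), where 0.754% of all genes were called higher. The F test of whether nanoceria acted differently in the 3 regimes called 0 of 9 with edgeR, and DESeq2 and voom also called 0. With edgeR 2 of the 9 (Csf1 and Cxcl1) had an unadjusted p under 0.05, where 6.14% of all genes lay. Without the smallest library only Csf1 did.

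**Figure D2:**
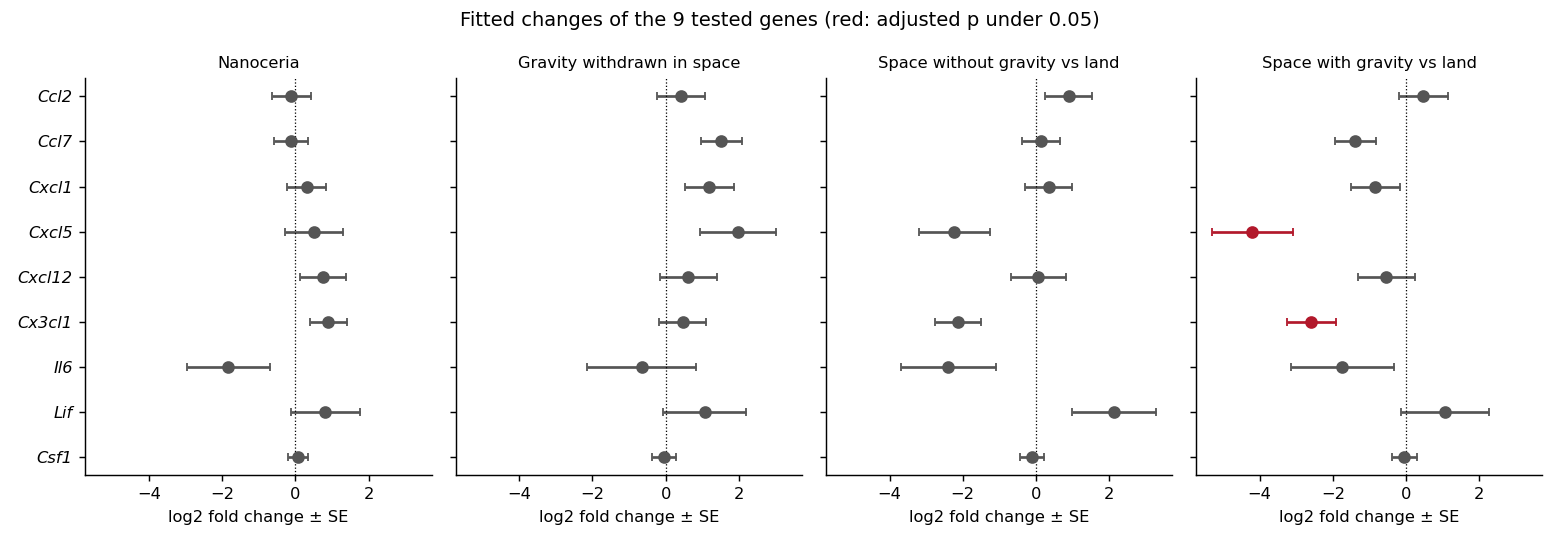
Fitted log2 fold change ± SE of the 9 tested genes in the 4 comparisons averaged over the other factor, from edgeR's model over 18 libraries. Red marks an adjusted p under 0.05, which is met by Cxcl5 at -4.20 and Cx3cl1 at -2.59 in space with gravity against land.

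Cxcl5 and Cxcl1 encode CXC chemokines that attract neutrophils through the receptor Cxcr2. Their genes lie 129616 bases apart on chromosome 5 (GRCm38), Cxcl5 at 90759360-90761624 and Cxcl1 at 90891241-90893115, both on the plus strand. Neither shares exon bases with another gene, but 0.693% of the 50-base stretches of Cxcl5 transcripts also occur in other genes. Cxcr2 itself had 0 counts in every library.

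Cxcl5 had 174, 69 and 272 counts in the 3 untreated land libraries, or 24.4, 17.6 and 89.4 CPM. The nanoceria-treated land libraries had 6, 14 and 424 counts, or 2.22, 2.80 and 138 CPM. Thus the land libraries were not uniform: a single nanoceria-treated culture held the highest level of all and the other two were low. In space with gravity, the untreated libraries had 33, 11 and 3 counts (2.13, 0.945 and 0.494 CPM), and the nanoceria-treated ones had 14, 60 and 0 (1.11, 9.56 and 0 CPM). As scaled, all untreated libraries of space with gravity lay below all land libraries, at the closest by 2.13 against 2.22 CPM. Those 2 values came from 33 counts of 11361755 and 6 counts of 6720185, so their order depends on the scaling. The nanoceria-treated groups overlapped, since replicate 2 in space with gravity exceeded 2 of the land libraries. Here and below, such separation of 3 libraries from 3 is a description. It was not tested, and the share of all genes separated in this way was not counted. The fitted log2 difference was -4.20 with an SE of 1.11 (edgeR adjusted p = 0.0217). It was -2.07 (adjusted p = 0.132) without nanoceria-treated replicate 3 on land, the library with 138 CPM. The call was also lost without untreated replicate 2 in space with gravity (adjusted p = 0.0559), without nanoceria-treated replicate 1 there (0.0797), and in limma voom, which weights libraries by quality (-2.45, adjusted p = 0.102).

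In space without gravity Cxcl5 lay between those levels. The untreated libraries had 3, 149 and 55 counts (0.602, 25.0 and 9.80 CPM), and the nanoceria-treated ones had 126, 6 and 18 counts (18.3, 2.23 and 3.05 CPM). Each of these groups spanned both low and high libraries and overlapped with land. The difference from land was -2.23 ± 0.97 (edgeR adjusted p = 0.167), and it was -0.12 without nanoceria-treated replicate 3 on land. DESeq2 called it (-2.50, adjusted p = 0.0453), and so did edgeR with no filter on low counts. Gravity withdrawal gave 1.97 ± 1.03 for Cxcl5 (edgeR adjusted p = 0.900).

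None of the differences in Cxcl1 passed the test. On land the untreated libraries had 105, 64 and 129 counts (14.7, 16.4 and 42.4 CPM) and the nanoceria-treated ones 6, 17 and 81 (2.22, 3.41 and 26.4 CPM). In space with gravity the untreated libraries had 109, 29 and 13 counts (7.03, 2.49 and 2.14 CPM). The nanoceria-treated ones had 79, 207 and 2 (6.26, 33.0 and 23.8 CPM), the last below the floor of its library, 35.7 CPM. Untreated cells were thus lower in space with gravity than on land with no overlap, which was not tested, while the nanoceria-treated groups overlapped. In space without gravity the counts were 29, 156 and 193 untreated (5.82, 26.2 and 34.4 CPM) and 252, 29 and 55 with nanoceria (36.7, 10.8 and 9.31 CPM), again overlapping. Within space with gravity, the nanoceria difference was 2.36 ± 0.99 (unadjusted p = 0.0284, edgeR adjusted p = 1), in a comparison where 4.46% of all genes had an unadjusted p under 0.05. On land it was -1.20 ± 0.93 (adjusted p = 0.699). The test of a nanoceria difference between regimes gave an unadjusted p of 0.0470 and an adjusted p of 0.803 for Cxcl1. Without the smallest library Cxcl1 was no longer at an unadjusted p under 0.05 in that test. It stayed there for nanoceria within space with gravity.

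Cxcl1 and Cxcl5 moved together from library to library. Over the 17 deeper libraries their log2 CPM had a Pearson correlation of 0.82 and a Spearman rho of 0.83, the highest Pearson value of the 36 pairs of tested genes. After group means were removed it was 0.95, and without the 2 libraries farthest from the median it was 0.81. These libraries share depth and scaling, so the values are a description. Among all tested genes, the closest to Cxcl5 were Col6a1 (a collagen VI chain) at 0.94, the noncoding RNA H19 at 0.93 and Mgp (matrix Gla protein) at 0.93. The closest to Cxcl1 were Tcf19 at 0.86 and Krt14 at 0.85, followed by Cxcl5. Some of these genes were low: Krt14 had a mean of 5.24 counts in the 17 libraries, Mgp 23.8 and Tcf19 33.6.

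Cx3cl1 encodes fractalkine, which is made as a membrane-anchored chemokine and shed from the cell; its receptor gene Cx3cr1 had 0 counts in every library. The gene lies on chromosome 8 at 94772009-94782427 on the plus strand (GRCm38). The promoter of Cx3cl1 is printed because it was the called gene with a window in the RefSeq table, and that of Cxcl1 is set beside it, chosen after its values were seen, to show how a window with motif matches differs. Each line gives the 250 bases before the RefSeq start (GRCm38.p6, plus strand, 5′ to 3′), chr8:94771930-94772179 for Cx3cl1 and chr5:90890995-90891244 for Cxcl1, with matches to the kappaB motif of NF-kappaB in capitals.
Cx3cl1: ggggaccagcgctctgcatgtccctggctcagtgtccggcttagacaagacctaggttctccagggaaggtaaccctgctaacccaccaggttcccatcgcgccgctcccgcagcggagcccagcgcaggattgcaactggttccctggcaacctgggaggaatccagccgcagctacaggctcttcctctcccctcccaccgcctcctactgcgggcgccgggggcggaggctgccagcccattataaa
Cxcl1: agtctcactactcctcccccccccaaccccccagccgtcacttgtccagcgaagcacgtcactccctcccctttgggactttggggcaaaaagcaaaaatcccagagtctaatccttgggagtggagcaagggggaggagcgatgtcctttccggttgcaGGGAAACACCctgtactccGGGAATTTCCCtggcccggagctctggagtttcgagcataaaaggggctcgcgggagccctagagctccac

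RefSeq windows, from 250 bases before to 50 bases after the start, were found for 7 of the 10 genes, 8 windows in all. The kappaB motif, spelled GGGA, then any 4 bases, then CC and searched on both strands, occurred in the windows of Cxcl1, Il6, Lif and Csf1, and in 20.7% of all 32851 windows. In Cxcl1 the matches begin 90, 71 and 70 bases before the start, the last of them on the opposite strand and overlapping its neighbour. The AP-1 motif TGANTCA, which reads the same on both strands, occurred in Il6 and Lif, and in 7.81% of all windows. The windows of Cx3cl1, Cxcl12 and Il1rl1 held neither set of letters. The promoters of Ccl2, Ccl7 and Cxcl5 were not analysed here.

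Cx3cl1 had 308 counts in all, and its highest levels were on land. The untreated land libraries had 33, 30 and 21 counts (4.63, 7.67 and 6.90 CPM), and the nanoceria-treated ones had 4, 39 and 53 (1.48, 7.81 and 17.3 CPM). In space with gravity the untreated libraries had 15, 8 and 4 counts (0.967, 0.688 and 0.659 CPM), and the nanoceria-treated ones 21, 15 and 0 (1.66, 2.39 and 0 CPM). Without nanoceria every land library exceeded every library of space with gravity; with nanoceria, replicate 1 on land lay below replicates 1 and 2 in space with gravity. The fitted difference was -2.59 ± 0.66 (edgeR adjusted p = 0.0189). Leaving out untreated replicate 2 in space with gravity gave an adjusted p of 0.05001, just above the threshold, leaving out nanoceria-treated replicate 1 there gave 0.0785, and leaving out nanoceria-treated replicate 3 on land gave 0.0504, with log2 differences of -2.50, -2.48 and -2.12.

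In space without gravity Cx3cl1 had 1, 13 and 7 counts untreated (0.201, 2.18 and 1.25 CPM) and 35, 1 and 8 with nanoceria (5.10, 0.371 and 1.35 CPM). The untreated libraries again lay below all untreated land libraries. The difference from land was -2.13 ± 0.62 with an edgeR adjusted p of 0.0520, just above the threshold, and DESeq2 gave -2.43 (adjusted p = 0.00735). Leaving out single libraries brought it under the threshold in 3 of 12 edgeR fits (lowest adjusted p = 0.0342). With DESeq2's size factors or with no filter on low counts, edgeR called it as well. Gravity withdrawal gave 0.47 ± 0.64 (edgeR adjusted p = 1.00). Nanoceria gave 0.90 ± 0.51 averaged over the regimes (edgeR adjusted p = 0.778). Across the 17 deeper libraries Cx3cl1 correlated with Cxcl5 at a Pearson value of 0.81 (Spearman 0.76), and at 0.69 without the 2 farthest libraries.

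The share of counts in the 6 dominant genes was on average lower in space with gravity than on land, as were both called genes. It was 56.6% ± 11.9 and 48.0% ± 7.92 in space without gravity (untreated and nanoceria-treated, SD, n = 3 each), 36.8% ± 15.8 in nanoceria-treated cells in space with gravity and 65.6% ± 7.06 in nanoceria-treated cells on land. With the log2 share as a covariate, the difference between space with gravity and land was -4.37 ± 1.71 for Cxcl5 (edgeR adjusted p = 0.325) and -2.79 ± 1.14 for Cx3cl1 (adjusted p = 0.353). The sizes were as large, the errors were wider, and 2 genes of all those tested were called in that fit. The share's part in these results was not tested beyond this, and no association over single libraries was computed. In the order of the CPM given above, the land shares were 70.1%, 76.3% and 49.6% untreated and 73.3%, 59.4% and 64.1% with nanoceria. When the 6 genes were removed before scaling, the adjusted p was 0.0221 for Cxcl5 and 0.0194 for Cx3cl1. Without the library of 23858 counts, the differences were -4.14 (adjusted p = 0.0359) and -2.61 (0.0235).

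**Figure D3:**
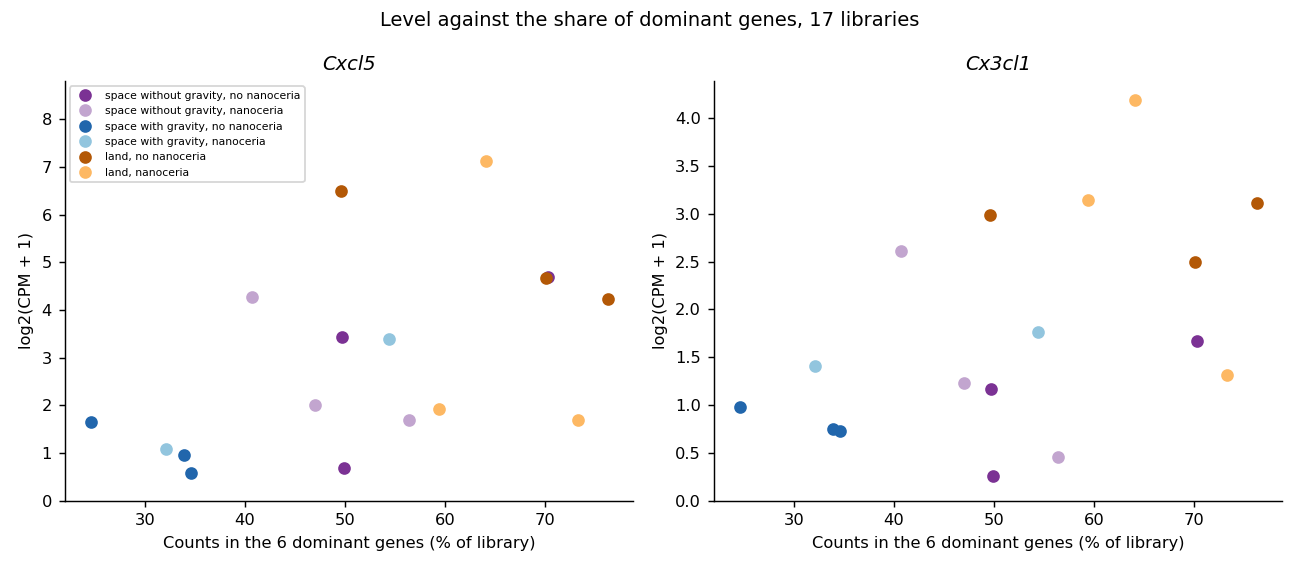
Level of Cxcl5 and Cx3cl1, as log2(CPM + 1), against the percentage of a library's counts in the 6 dominant genes, for the 17 deeper libraries, coloured by group. The untreated libraries of space with gravity sit low on both axes, between 24.5% and 34.6%, and the land libraries lie at 49.6% or above.

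Ccl2 and Ccl7 encode CC chemokines that attract monocytes through Ccr2, whose gene had 0 counts in every library. They are neighbours on chromosome 11 (GRCm38), Ccl2 at 82035571-82037453 and Ccl7 at 82045712-82047525, both on the plus strand and 8258 bases apart. Their correlation over the 17 libraries was 0.26 (Spearman 0.29), 0.01 after group means were removed and 0.42 without the 2 farthest libraries.

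Ccl7 had 34, 18 and 15 counts in untreated land cells (4.77, 4.60 and 4.93 CPM) and 18, 6 and 4 in untreated cells in space with gravity (1.16, 0.516 and 0.659 CPM). With nanoceria the counts were 15, 4 and 4 on land (5.55, 0.801 and 1.30 CPM) and 15, 21 and 0 in space with gravity (1.19, 3.35 and 0 CPM). The untreated groups were separate and the treated groups overlapped. The difference between space with gravity and land was -1.39 ± 0.56 (unadjusted p = 0.0239, edgeR adjusted p = 0.100). It was called with DESeq2's size factors (-1.72, edgeR adjusted p = 0.0470) and with the DESeq2 test (-1.70, adjusted p = 0.0366), fits that called 13.5% and 16.4% of all genes as lower and in which the median over all genes also moved, to -0.39 and -0.37. Relative to those medians Ccl7 was lower by about as much as in the first fit.

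Without gravity Ccl7 had 7, 38 and 41 counts untreated (1.40, 6.38 and 7.31 CPM) and 24, 6 and 16 with nanoceria (3.49, 2.23 and 2.71 CPM). As scaled, the untreated libraries were all above the untreated libraries of space with gravity, at the closest by 1.40 against 1.16 CPM. Those 2 values came from 7 counts of 5442647 and 18 counts of 11361755, so their order depends on the scaling. Gravity withdrawal gave 1.52 ± 0.56 (unadjusted p = 0.0134, edgeR adjusted p = 0.731), the smallest unadjusted p of the 9 genes in that comparison, in which 5.85% of all genes had an unadjusted p under 0.05. Against land, cells in space without gravity differed by 0.14 ± 0.52 (edgeR adjusted p = 0.903).

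Ccl2 varied within every group. Its counts were 33, 49 and 65 in untreated cells in space without gravity (6.62, 8.22 and 11.6 CPM) and 128, 25 and 6 in untreated cells in space with gravity (8.25, 2.15 and 0.988 CPM). On land they were 53, 23 and 5 untreated (7.44, 5.88 and 1.64 CPM) and 1, 15 and 17 with nanoceria (0.370, 3.01 and 5.53 CPM). The nanoceria-treated libraries in space had 82, 5 and 23 counts without gravity and 42, 86 and 0 with gravity. All these ranges overlapped except that untreated cells without gravity lay above nanoceria-treated cells on land. The averaged differences ran from -0.11 ± 0.53 for nanoceria to 0.90 ± 0.65 for space without gravity against land (edgeR adjusted p = 1.00 and 0.405).

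Cxcl12 encodes a CXC chemokine that binds Cxcr4 and the scavenging receptor Ackr3 and is known to guide muscle progenitors. It lies on chromosome 6 at 117168535-117181367 on the plus strand (GRCm38). Its 2 highest libraries were in different regimes: nanoceria-treated replicate 2 in space without gravity with 267 counts (99.1 CPM) and nanoceria-treated replicate 3 on land with 169 (55.0 CPM). The other nanoceria-treated libraries had 115 and 16 counts in space without gravity and 53 and 20 on land. Untreated cells had 19, 98 and 45 counts without gravity, 281, 321 and 28 with gravity, and 38, 21 and 86 on land, and the nanoceria-treated libraries with gravity had 129, 67 and 0. No group was separate from the rest. Nanoceria in space without gravity gave 2.05 ± 1.11 (unadjusted p = 0.0798, edgeR adjusted p = 1), where 3.97% of all genes had an unadjusted p under 0.05. The 4 averaged differences ran from -0.55 ± 0.78 to 0.74 ± 0.63 with adjusted p of 0.666 or more. The genes closest to it over the 17 libraries were Cdc42ep2 at 0.78, Acp2 at 0.76 and BC048403 at 0.75, the last with a mean of 19.1 counts.

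Lif and Il6 are the gp130 cytokines of the list. Lif lies on chromosome 11 at 4257557-4272514 and Il6 on chromosome 5 at 30013114-30019981, both on the plus strand (GRCm38). Lif was carried by a few libraries: 128 of its 428 counts were in untreated replicate 3 and 104 in nanoceria-treated replicate 1 in space without gravity, and 101 were in nanoceria-treated replicate 2 in space with gravity (22.8, 15.1 and 16.1 CPM). On land it had 12, 3 and 8 counts untreated and 4, 6 and 4 with nanoceria, between 0.767 and 2.63 CPM. The remaining libraries in space had 0 and 9 untreated and 1 and 1 with nanoceria without gravity, and 34, 6 and 0 untreated and 5 and 2 with nanoceria with gravity. Space cultures thus held both the highest and the lowest Lif levels, and land cultures lay between. The difference of space without gravity from land was 2.14 ± 1.16 (unadjusted p = 0.0824, edgeR adjusted p = 0.264), and that of space with gravity was 1.07 ± 1.21 (adjusted p = 0.575). With no filter on low counts the former was called (2.20, edgeR adjusted p = 0.00975), where 3.57% of all genes were called higher. Nanoceria in space with gravity gave 3.37 ± 1.74 (unadjusted p = 0.0681, edgeR adjusted p = 1), and this too was called with no filter, as given above. Of the 108 counts in that treated group, 101 were in replicate 2, and replicate 1 had 0.396 CPM. The 2 counts of replicate 3, the smallest library, scale to 23.8 CPM, below its floor of 35.7 CPM. With the share of dominant genes as a covariate, the difference between space with gravity and land was -0.79.

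Il6 was near the limit of detection, with 148 counts over all libraries and 0 in 5 of the 17 deeper ones. Of these, 69 were in untreated replicate 2 on land (17.6 CPM) and 37 in untreated replicate 2 in space with gravity (3.18 CPM). No other library had more than 9. The single count of Il6 in the smallest library corresponds to 11.9 CPM, which is below the floor of that library. Its averaged differences ran from -2.39 ± 1.30 for space without gravity against land (edgeR adjusted p = 0.263) to -0.66 ± 1.49 for gravity withdrawal (adjusted p = 1.00). Nanoceria gave -1.84 ± 1.14 (adjusted p = 0.796).

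Csf1 encodes the macrophage colony-stimulating factor. It lies on chromosome 3 at 107741048-107760469 on the minus strand (GRCm38), and it was the best-measured gene of the list, with 83 to 1067 counts in each of the 17 deeper libraries. Its mean was 70.8 CPM ± 8.01 untreated and 61.3 ± 16.5 with nanoceria in space without gravity (SD, n = 3 each). In space with gravity it was 86.0 ± 25.0 untreated, and 66.7 and 45.9 CPM in the 2 deeper nanoceria-treated libraries. On land it was 48.6 ± 19.6 untreated and 103 ± 13.2 with nanoceria. As scaled, the 2 land groups did not overlap: 65.7, 52.7 and 27.3 CPM against 100.0, 90.8 and 117. Replicate 1 had 468 counts of 6783939 untreated and 270 of 6720185 with nanoceria. The separation therefore depends on the TMM factors of these 2 libraries, 1.05 and 0.403. Nanoceria on land gave 1.08 ± 0.47 with an unadjusted p of 0.0347 and an edgeR adjusted p of 0.444. That comparison called 0.0% of all genes and put 10.2% of them at an unadjusted p under 0.05. DESeq2 and voom called 0 of the 9 genes there, with 1 and 2 at an unadjusted p under 0.05. In space the nanoceria differences of Csf1 were -0.21 ± 0.47 without gravity and -0.66 ± 0.48 with gravity, and the test of a difference between regimes had an unadjusted p of 0.0475 and an adjusted p of 0.803. The averaged differences lay between -0.10 ± 0.33 and 0.07 ± 0.27. Its closest genes were Ccdc97 at 0.82, Nsf at 0.80 and Acd at 0.78. Its correlation with Cxcl1 was -0.56, the lowest of the 36 pairs, and -0.30 after group means were removed.

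Il1rl1 encodes ST2, the receptor of interleukin 33, and is the receptor in the list. It lies on chromosome 1 at 40429570-40465415 on the plus strand (GRCm38). It had 24 counts over 7 libraries, 13 of them in untreated replicate 2 in space with gravity (1.12 CPM), and it failed the filter on low counts, so it was not tested. The nanoceria-treated land libraries had 0 counts. Il33, its ligand, was tested: it had 0, 17 and 26 counts untreated and 61, 2 and 5 with nanoceria in space without gravity, and at most 10 in any other library. Gravity withdrawal gave 2.69 ± 0.92 for Il33 (unadjusted p = 0.00902, edgeR adjusted p = 0.668).

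Receptors of these ligands were also examined, in a list that also held the ligand Il33. Of 12 genes in that list, 6 were tested, Il33 among them, and edgeR called 0 in any of the 4 averaged comparisons. At an unadjusted p under 0.05 there were 0 for nanoceria and 1 for gravity withdrawal. Space with and without gravity against land had 1 and 2. Of all genes, 6.54%, 5.85%, 31.9% and 24.7% lay there, in the same order. The gene counted for gravity withdrawal was Il33, whose values are given above. The tested genes of that list with the highest mean CPM, not corrected for length, were Lifr, Il6st and Ackr3. Lifr, which encodes the Lif receptor, had group means from 150 CPM ± 127 to 710 ± 297 over the 17 deeper libraries (SD, n = 3 in the groups with these means). Il6st, which encodes gp130, had means from 20.2 ± 7.48 to 51.4 ± 29.4 CPM, and Ackr3 from 4.72 ± 2.74 to 8.74 ± 3.84 CPM in these libraries. For space with gravity against land their differences were -0.38 ± 0.66, -0.22 ± 0.46 and 0.27 ± 0.41 (edgeR adjusted p = 0.727, 0.779 and 0.692).

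Genes of the NF-kappaB pathway and its targets were examined beside these ligands. Of 32 genes, 29 were tested, and in space with gravity against land 1 was called higher and 3 lower, beside 7.22% and 6.74% of all genes, so the list's share of calls was near the background of 14.0%. Its median log2 difference was -0.42 beside -0.04 over all genes. Nfkbia, the inhibitor that NF-kappaB itself induces, gave -2.54 ± 0.46 (edgeR adjusted p = 0.00565). It had 37.7 CPM ± 12.5 untreated on land and 7.43 ± 2.31 in untreated cells in space with gravity (SD, n = 3). Cebpb, a transcription factor that acts at the Il6 promoter, gave -1.67 ± 0.41 (adjusted p = 0.0165), and the tumour necrosis factor receptor Tnfrsf1a gave -1.10 ± 0.34 (0.0402). Ikbkg, the regulatory subunit of the IkappaB kinase, was higher by 2.85 ± 0.65 (0.0121). Exons of Ikbkg share 418 bases with G6pdx and those of Cebpb 312 bases with Tmem189 on the opposite strand, and the use of strand in counting is not given in the sources used here, so their counts are uncertain. Leaving out single libraries cost Tnfrsf1a its call in 10 of 12 fits, Cebpb in 2, and Nfkbia and Ikbkg in 0.

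**Figure D4:**
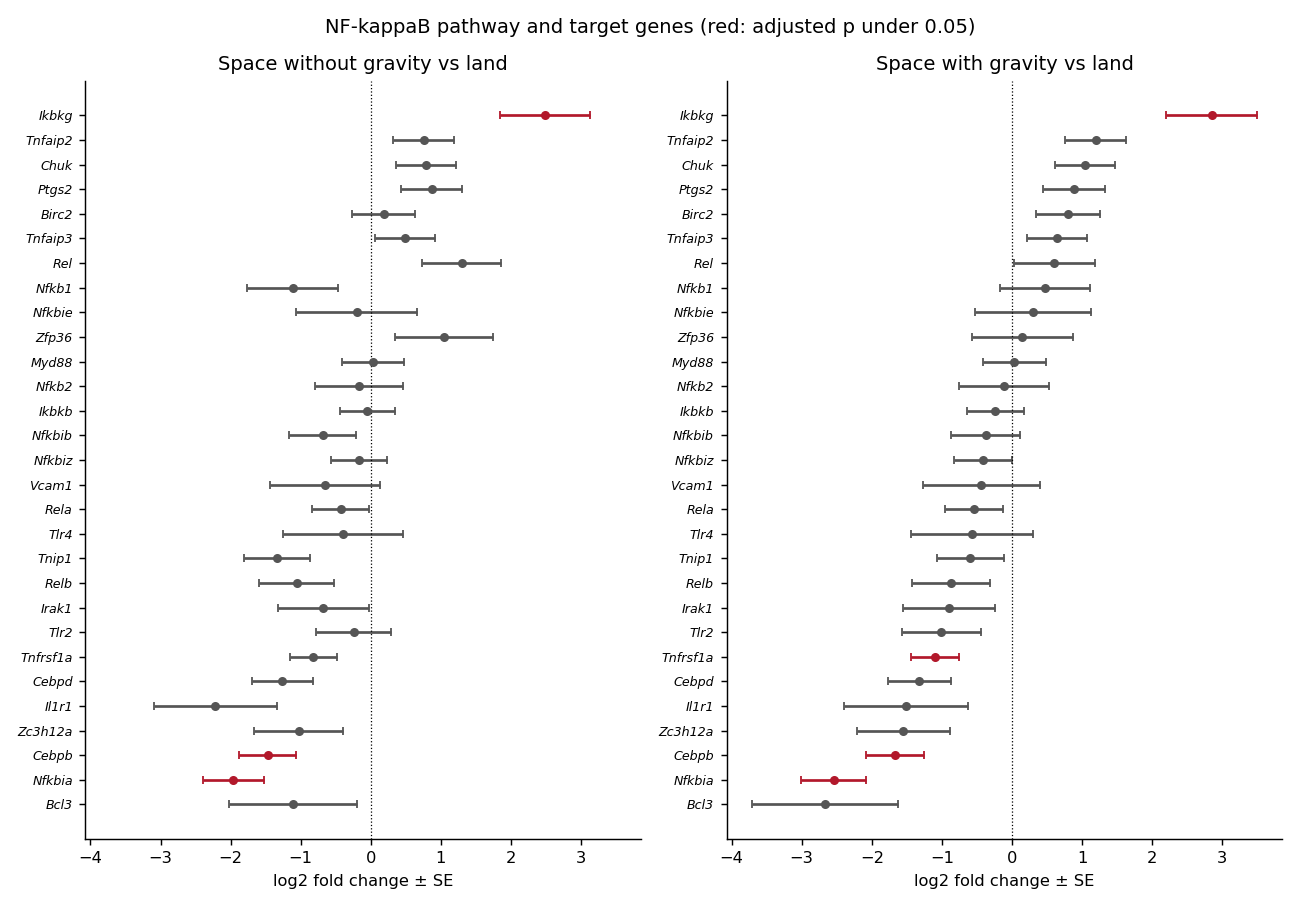
Fitted log2 fold change ± SE of the 29 tested genes of the NF-kappaB list in both space regimes against land, which share the land libraries. Red marks an edgeR adjusted p under 0.05: Ikbkg lies to the right, and Nfkbia and Cebpb to the left, in both panels.

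In space without gravity against land, the same list had 1 gene called higher and 2 lower, beside 2.81% and 2.44% of all genes, with a median of -0.39 beside -0.02. Nfkbia gave -1.96 (edgeR adjusted p = 0.0216), Cebpb -1.47 (0.0440) and Ikbkg 2.48 (0.0349). Single omissions cost these calls in 5, 11 and 9 of 12 fits. For nanoceria and for gravity withdrawal, edgeR called 0 of 29, with 3 and 1 at an unadjusted p under 0.05, where 6.54% and 5.85% of all genes lay.

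In the list of gp130, JAK and STAT genes, 13 of 14 were tested, and 1 was called higher than land in each space regime by edgeR, beside 7.22% of all genes with gravity and 2.81% without. That gene was Stat5b, a transcription factor downstream of cytokine receptors, with 3.25 ± 0.62 with gravity (adjusted p = 0.00685) and 2.52 without (0.0250). Leaving out single libraries cost the call in 0 of 12 fits with gravity and in 6 of 12 without. Its land libraries lay between 0.651 and 4.35 CPM. Libraries without gravity lay between 3.19 and 24.1 CPM, overlapping with land. Those with gravity lay between 9.37 and 71.5 CPM, the highest from 6 counts in the smallest library. The medians of the list were -0.02 and 0.07, beside -0.04 and -0.02 over all genes. For nanoceria and gravity withdrawal 0 of 13 were called by edgeR, with 1 and 0 at an unadjusted p under 0.05, where 6.54% and 5.85% of all genes lay. With the share of dominant genes as a covariate, none of the 5 genes called in these lists for space with gravity passed the test, Stat5b giving 1.79 and Nfkbia -1.99 (edgeR adjusted p = 0.455 and 0.282).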

How the data were processed

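The deposited files hold raw counts per Ensembl gene for 18 libraries of polyadenylated RNA, with gene coordinates per the file headers. The submitters' processing notes name CASAVA, Trimmomatic 0.36.29, STAR, Subread, featureCounts and GRCm38.p6, without settings, and the use of strand is not given in the sources used here. The 18 small RNA samples were not analysed here.

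For differences between groups the counts went into edgeR 4.0.16 (R 4.3.3): filterByExpr over the 6 groups (11558 genes), TMM scaling, and a robust quasi-likelihood group-means model over all 18 libraries with 12 residual degrees of freedom. Adjusted p-values (Benjamini-Hochberg) run over all genes tested, with a threshold of 0.05. CPM uses TMM-scaled library sizes. The SE of a log2 fold change is its size divided by the square root of F, and a positive value means a higher level in the condition named first. On simulated counts with changes planted in chosen groups, fold changes were close to those planted, somewhat too small with voom and for the group that holds the smallest library. With TMM, edgeR was run on changes in both groups of space with gravity, in both without gravity, and in each nanoceria-treated group alone. With DESeq2's size factors, the higher count minimum and the covariate, it was run on the first of these only. Limma voom and DESeq2 were run on that and on nanoceria-treated cells in space with gravity. In these other settings, comparisons in which the planted changes were absent or cancelled give no measure of recovery. Most small planted changes were not called, and edgeR's test of a difference between regimes called almost none of those planted in a single group, so an uncalled gene is not shown to be unchanged. DESeq2 called more of the planted changes and more unchanged genes than edgeR. Genes that fail the filter, left-out libraries and removal of the dominant genes were not simulated. The correlation and motif functions recovered planted patterns. Alternatives used DESeq2 1.42.0, limma 3.58.1, other filters, scalings and covariates, and left out single libraries. Exon length per gene comes from the files. Symbols were found for 48970 of 49315 genes. Likeness between genes is the Pearson correlation of log2 CPM (prior count 2) over the 17 deeper libraries, between each member with a mean of at least 50 counts and all other tested genes, some of which have lower means.

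The 10 genes and all lists were chosen with earlier results of these data known. The genes named are all 10 members, list genes past the threshold in an averaged comparison, receptors with the highest mean CPM and the 3 most alike genes. Il33, Cxcr2, Ccr2 and Cx3cr1 were added to the named genes as ligand and receptors of members after their values were seen, as were the uncalled cytokines of the closing section. Each library is its own culture unit, and the land run was separate. Depth limits each value as stated beside it.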

Additional observations from a re-analysis of the deposited data

How the results depend on the processing

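No paired analysis was possible because replicate numbers follow the order of the records and pair no libraries. In the 17 deeper libraries a count of 0 allows up to 1.11 CPM, which limits Il6, Il1rl1 and the low libraries of Lif and Cx3cl1. Leaving out nanoceria-treated replicate 3 on land, untreated replicate 2 in space with gravity or nanoceria-treated replicate 1 there ended the calls of Cxcl5 and Cx3cl1. For the 9 tested genes in the averaged comparisons, 229 of the results under other settings kept direction and side of the threshold, 16 reversed, 9 passed it anew and 3 no longer passed; when single libraries were left out these numbers were 424, 53, 3 and 6. Under a mean of at least 50 counts 4 of the genes were tested, without Cx3cl1.

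Genes called with DESeq2 numbered 2691 for space with gravity against land (1613 with edgeR), 1524 for space without gravity against land (607 with edgeR), 11 for gravity withdrawal and 1 for nanoceria averaged (0 each with edgeR), 6 for nanoceria in space with gravity, 138 for nanoceria on land and 8 for the difference between regimes. With no filter on low counts they were 1466 for space without gravity against land, 229 for gravity withdrawal, 214 for nanoceria averaged, 205, 253 and 502 for nanoceria in space without gravity, in space with gravity and on land, and 551 for the difference between regimes. With the share of dominant genes as a covariate they were 2 for space with gravity and 38 for space without gravity against land, with voom 989 for the latter, and in fits of only the libraries compared 1072, 387 and, for nanoceria in space with gravity, 1. Omitting single libraries gave 459 to 1614 for space with gravity against land, 82 to 703 for space without gravity against land and 0 to 1 for nanoceria on land. The causes of these shifts were not tested.

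None of the reversed values passed a threshold. With voom, Cxcl1 (-0.17) and Cxcl5 (-0.38) reversed for nanoceria, Cxcl12 (-0.20) and Il6 (0.44) for gravity withdrawal, and Cxcl12 (0.48) for space with gravity against land. Csf1 reversed for gravity withdrawal with DESeq2's size factors (0.037) and its test (0.0325), for space with gravity against land with no filter (0.045) and the covariate (0.31), and for space without gravity against land with the covariate (0.032). Lif reversed for space with gravity against land with the covariate (-0.79). For space without gravity against land, Ccl7 reversed with DESeq2's size factors and test (-0.11 in both), and Cxcl12 with the same (-0.11 in both) and with a mean of at least 50 counts (-0.094).

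Leaving out single libraries, log2 differences for nanoceria ranged from -0.55 to 0.31 for Ccl2, -0.53 to 0.049 for Ccl7, -0.31 to 0.56 for Cxcl1, -0.88 to 0.89 for Cxcl5, -0.64 to 1.95 for Lif and -0.025 to 0.16 for Csf1. For gravity withdrawal they ranged from -0.093 to 1.07 for Ccl2, -0.41 to 0.89 for Cxcl12, -0.22 to 0.68 for Cx3cl1, -1.51 to 0.24 for Il6, -1.09 to 2.10 for Lif and -0.14 to 0.077 for Csf1. For space with gravity against land they ranged from -0.14 to 0.87 for Ccl2, -1.36 to 0.11 for Cxcl1, -0.79 to 0.13 for Cxcl12, -2.62 to 1.06 for Il6 and -0.16 to 0.10 for Csf1. For space without gravity against land they ranged from -0.082 to 0.79 for Ccl7, -0.083 to 1.30 for Cxcl1, -0.92 to 0.72 for Cxcl12, -3.00 to 0.40 for Il6, -0.00067 to 2.46 for Lif and -0.22 to 0.047 for Csf1.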

Other observations

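Most other chemokine and cytokine genes were too low to test. Of 41 such genes, 8 were tested (Ccl25, Clcf1, Il18, Il4, Il7, Kitl, Mif and Spp1). Spp1, which encodes the secreted matrix protein osteopontin, was the gene called by edgeR, lower in space with gravity than on land by a log2 difference of -2.46 ± 0.69 (adjusted p = 0.0274), in a comparison where 14.0% of all genes were called and 6.74% were called lower. Its land libraries had 35.0, 181 and 194 CPM untreated and 22.2, 7.21 and 166 CPM with nanoceria, and those of space with gravity had 15.7, 13.8 and 20.1 CPM untreated and 13.2, 28.9 and 0 CPM with nanoceria. As with Cxcl5, the untreated groups were separate and the treated groups overlapped, with a single high nanoceria-treated land library. The call of Spp1 was lost in 6 of 12 fits without a single library, with voom (-1.67) and with the share of dominant genes as a covariate (-2.19), and its exons share 309 bases with Gm42793 on the same strand. The list's median was -0.52 beside -0.04 over all genes.

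For space without gravity against land, and for nanoceria and gravity withdrawal, edgeR called 0 of the 8, with 3, 1 and 1 at an unadjusted p under 0.05, where 24.7%, 6.54% and 5.85% of all genes lay. Mif, the macrophage migration inhibitory factor, had 909 CPM ± 451 untreated on land and 289 ± 62.4 in untreated cells in space with gravity (SD, n = 3 each), and its difference averaged over nanoceria was -1.39 ± 0.46 (edgeR adjusted p = 0.0529). Ccl25, a chemokine known from thymus and gut, had 41.2 CPM ± 41.1 untreated and 1.54 ± 0.64 with nanoceria on land, where its untreated libraries had 0.983, 39.4 and 83.1 CPM. Its exons share 204 bases with Elavl1 on the opposite strand, so its counts are uncertain.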
